A study of Hypsibius exemplaris with 24 samples.

Results

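In the tardigrade *Hypsibius exemplaris*, 103 transcripts stood close to the water control at the end of a bleomycin exposure and well below it at every time sampled after the animals had been moved to recovery plates. They were drawn from 20853 transcripts, of which 12916 reached at least 5 TPM in at least 3 libraries and were kept. TPM, transcripts per 1000000, gives the abundance of a transcript relative to all others in its library after allowing for length. Members were chosen on the group mean of log2(scaled TPM + 1), where each library had been scaled by its median ratio to the other libraries. At 0 h the mean had to lie within 0.5 of the control (1.41-fold), which held for 7861 kept transcripts. At each of 1, 3, 6, 9, 12 and 24 h it had to lie at least 1.2 below the control (2.30-fold).

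RNA came from pools of 50 whole animals. The control pools spent 24 h in Volvic mineral water and the treated pools spent the same 24 h in 100 µM bleomycin dissolved in it. Control and 0 h pools were frozen when the exposure ended, while all later pools were first washed, put on agar plates with *Chlorella* as food and held at 18 °C. Each of the 8 groups held 3 libraries, labelled as biological replicates, 24 in all. The labels name no strain or genotype. The control was taken once. From 1 h on, washing, agar plates, feeding and the hours since the control was frozen cannot be told apart from recovery after bleomycin, and no untreated pool on plates was analysed here.

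Bleomycin binds DNA with a metal ion and cuts its strands, and cells answer such damage by halting division and by switching on repair genes. Tardigrades are small aquatic animals known for surviving drying and radiation, and many species tolerate more DNA damage than most animals do. The level of a transcript is the balance of its synthesis and its decay, so a level can drop when either changes. In a whole-body pool, fewer cells of a type and less RNA per cell cannot be told apart. The deposited table pairs no identifier with a gene name, a product or a sequence, so members are given by locus number and nothing is said of what they encode.

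Sequencing depth cannot be read from TPM, so it is unknown here and no counting error can be given. A library listed from 14984 to 17173 transcripts above 0. The scale factors ran from 0.664 to 1.18. Pearson correlations across transcripts between libraries of 1 group ran from 0.859 to 0.963, and no pair of libraries held identical values.

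Together the 103 transcripts held 1.25% ± 0.268 (SD, n = 3 libraries) of a control library's TPM, and 0.974% ± 0.0840 of that of a 0 h library. The share was 0.347% ± 0.0378 after 1 h on the plates and 0.201% ± 0.0640 after 24 h. The lowest share, 0.148% ± 0.0294, came after 12 h. The rule fixed that the share at each recovery time would be low, so these shares are a description with no test.

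The median member stood at 58.9 scaled TPM in the control, and its 0 h level was 48.5. The 1 h median was 14.8, the 3 h median 11.4, the 6 h median 16.7, the 9 h median 13.8, the 12 h median 7.71 and the 24 h median 8.36. As log2 differences from control the medians were -0.27 for 0 h and -1.68 for 1 h. For the later times they were -2.01 (3 h), -1.59 (6 h), -1.79 (9 h), -2.34 (12 h) and -2.28 (24 h). The rule fixed all of these to be near 0 at 0 h and below -1.2 afterwards, so they describe the set and carry no test. Over all kept transcripts the same medians lay between -0.05 and 0.09. The scaling by median ratio holds such medians near 0, so they cannot show whether transcripts at large stayed level. What the rule left free was how far below -1.2 the members went and in what order. By these medians the low points came at 3 h and from 12 h on. The one at 3 h leaned on replicate 1, with a library median of -2.39 against -1.83 and -1.98 in replicates 2 and 3. The 9 h libraries, from -1.89 to -1.62, overlapped those of 3 h.

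**Figure D1:**
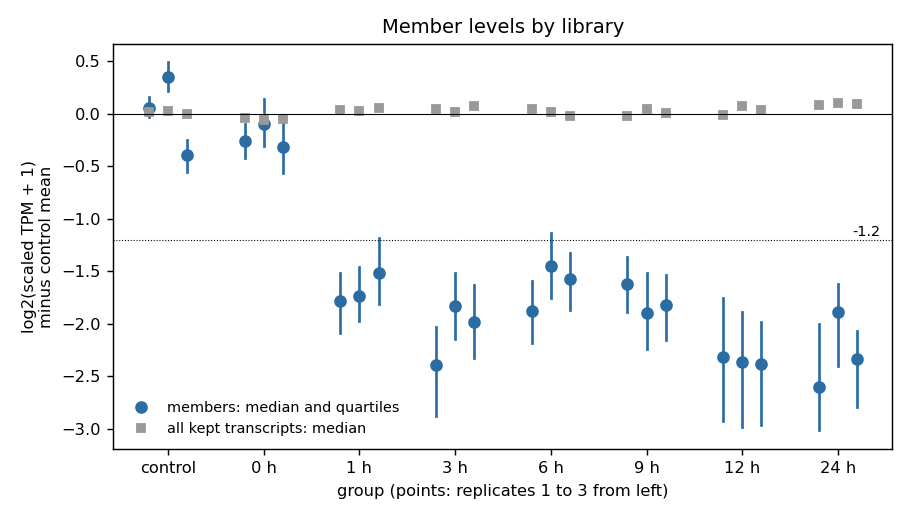
Median (points) and quartiles (lines) of the members' log2(scaled TPM + 1) minus the control mean, in each of the 24 libraries, with the median of all 12916 kept transcripts as squares. The dotted line is the limit of -1.2 used to choose members by their group means; all 18 recovery libraries have member medians below it, from -1.45 (6 h replicate 2) to -2.60 (24 h replicate 1), and the 3 control libraries differ among themselves.

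The rule required a difference of at least 1.2 at 1 h as at the later times, so a large step by then was set by the choice. The log2 level at 1 h minus that at 0 h had a median of -1.44 over the members, from -5.03 to -0.81. At 1 h the median member kept 29.2% of its control level, and at 24 h 18.1%. No member was back near control at 24 h, which the rule required, and the highest there still stood at 41.8% of control. These 1 h and 24 h values are means of 3 libraries each.

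Most members had a higher level than a typical transcript to begin with. The median kept transcript had a control level of 19.9 scaled TPM, against 58.9 for the members. Of the 103, 32 (31.1%) had a control level of at least 100 scaled TPM, compared with 13.2% of the kept transcripts. At the other end 8 members (7.77%) were under 10 scaled TPM, compared with 30.1%. On a scale with a pseudocount of 1 a low transcript has less room to reach the limit, and the part of this in the difference was not tested. The rule also used the control level. Control levels of kept transcripts went down to 0.0, from which no fall is possible, so the higher level is not read as a trait of the members.

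All 18 recovery libraries lay below all 3 control libraries in 95 of the 103 members, a pattern seen in 8.69% of kept transcripts. All 18 lay below all 3 libraries of 0 h in 92 members (8.36% of kept transcripts), and below all 6 libraries of control and 0 h in 92 (4.59%). The rule used both contrasts, so nothing is read from these counts. The 8 members that overlapped the control included BV898_16255, whose controls were 23.9, 4.99 and 14.5 scaled TPM. Its 3 h libraries stood at 2.11, 6.74 and 1.73, so 3 h replicate 2 lay above control replicate 2. No other member had control libraries this far apart on the log2 scale.

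**Figure D2:**
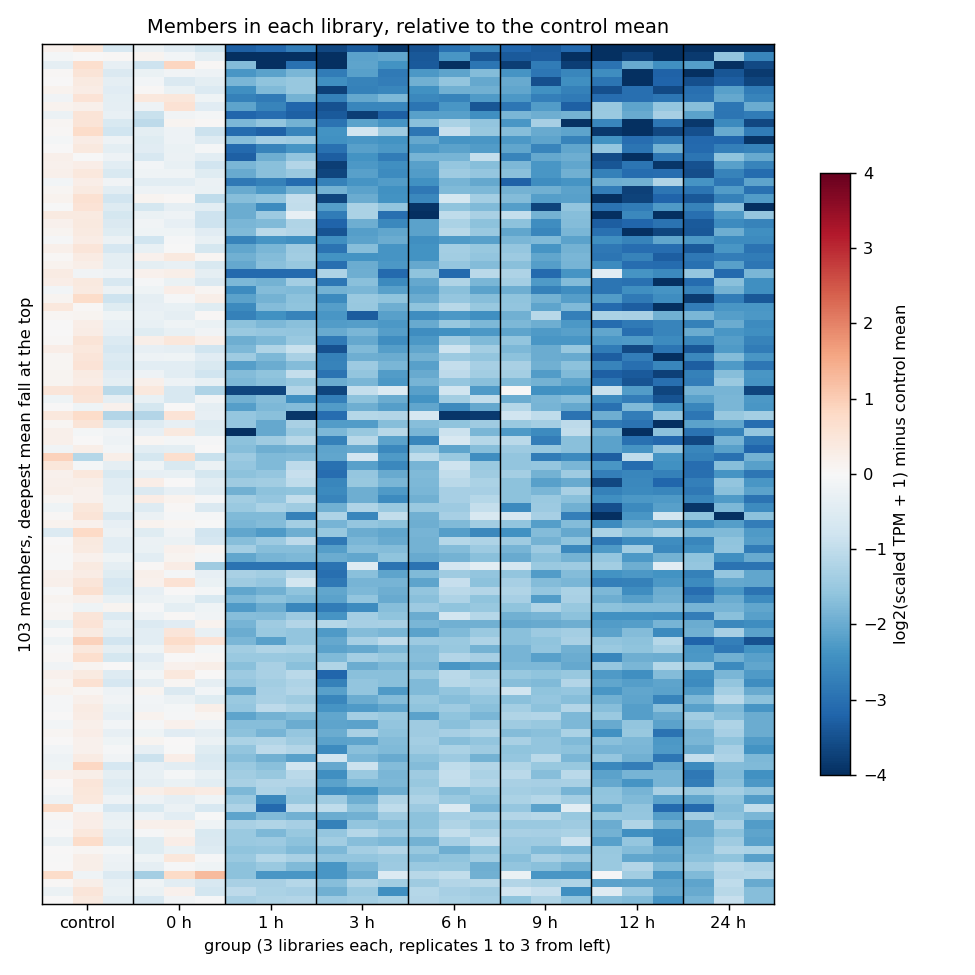
Each row is a member and each column a library, with log2(scaled TPM + 1) minus the control mean in colour (blue below control, red above; differences beyond 4 take the end colour). The rows run from the deepest mean difference to the shallowest; the change in colour lies between the 0 h and 1 h columns in nearly every row, and the 12 h and 24 h columns are darker than the 1 h, 6 h and 9 h columns in most rows.

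The members' control libraries did not stand level. Control replicate 2 was the highest of the 3 controls in 88 members (85.4%) and control replicate 3 the lowest in 92 (89.3%). Among all kept transcripts these shares were 40.9% and 38.7%. Against the control mean, the median member was at 0.05 in replicate 1, 0.35 in replicate 2 and -0.39 in replicate 3. The order 2, 1, 3 from high to low held in 81 members (78.6%) and in 27.5% of kept transcripts.

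The same order was common among transcripts that met the recovery limits but stood 0.5 to 1.2 below control at 0 h, at 78 of 103 (75.7%). It held in 23 of the 55 that stood at least 1.2 below control at 0 h (41.8%), and in 5 of the 91 raised by the mirrored rule (5.49%). These sets were chosen on the same control libraries, and the part of the control libraries in the choice of members was not tested.

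The depth of the fall below control therefore depended on which control library it was measured against. Against control replicate 3 alone, the median member was 0.17 above it at 0 h, -1.28 at 1 h and -1.95 at 24 h. At least 1.2 below at all 6 recovery times were 100 members against control replicate 2, 93 against replicate 1 and 37 against replicate 3, with 35 against each of the 3. All 18 recovery libraries lay below control replicate 3 in 96 members. The rule used the control and the share over all kept transcripts was not computed, so nothing is read from this count. Choosing members without control replicate 2 gave 78, of which 59 were among the 103, and choosing them without control replicate 3 gave 123, of which 64 were. With each of these left out, the median difference of the 103 at 0 h was -0.08 and -0.45.

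**Figure D3:**
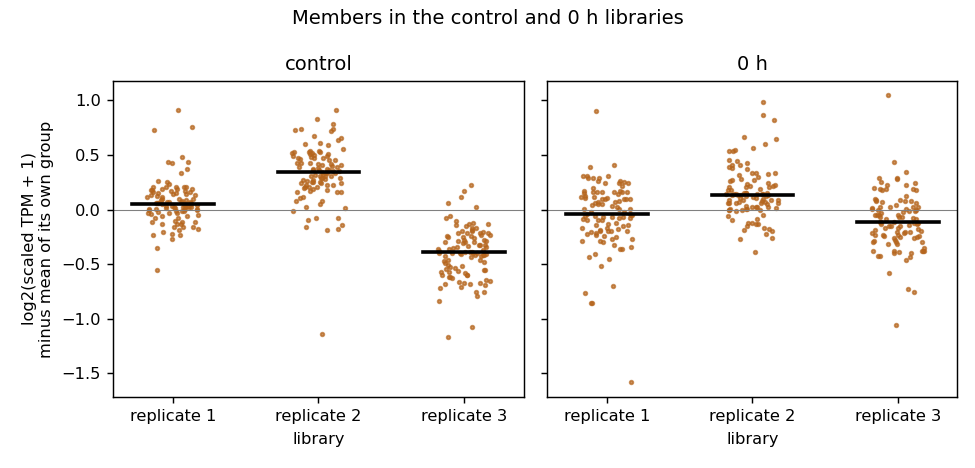
Each point is a member, as log2(scaled TPM + 1) minus the mean of its own group, in the 3 control libraries (left) and the 3 libraries of 0 h (right); bars are medians. The control medians are 0.05, 0.35 and -0.39 for replicates 1, 2 and 3, a wider spread than the 0 h medians of -0.04, 0.13 and -0.11.

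Within the 0 h group, which shared its handling with the control, 85 members lay below the control mean and 18 above it, compared with 53.9% of kept transcripts below. The differences ran from -0.50 to 0.32. The rule used both means, so nothing is read from these counts. Against control replicates 1, 2 and 3 alone, 87, 100 and 28 members lay below at 0 h. The libraries of some recovery groups also leaned. Replicate 1 was the lowest 3 h library in 75 members (35.6% of kept transcripts), and replicate 2 the highest 24 h library in 75 (46.1%). Replicate 1 was the lowest 6 h library in 70 (34.5%). Where such a library changes a count of members called between recovery times, the value without it is given below. Counts of members at least 4-fold below control were not redone without it. Nor were those of the times of the lowest and highest recovery mean.

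The member with the deepest mean difference over the 6 recovery times was BV898_09705, at -3.69. Its control libraries stood at 955, 1162 and 534 scaled TPM and its 0 h libraries at 713, 611 and 501. The 1 h libraries read 86.6, 95.3 and 123, those of 12 h read 34.0, 33.7 and 32.7, and those of 24 h read 27.2, 45.9 and 31.6. It was thus among the 3 most abundant members in the control and kept 11.5% of its control level at 1 h and 3.95% at 24 h, the smallest share of any member at 24 h. The control and 0 h libraries overlapped each other, and every recovery library lay far below both.

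BV898_12466 came next, at -3.63, and had the most even control libraries of any member, at 99.7, 107 and 110 scaled TPM. Its 0 h libraries read 113, 98.4 and 81.4 and overlapped the control. At 1 h they read 1.40, 1.88 and 2.86, which is 1.94% of the control mean. The 3 h libraries read 3.88, 23.0 and 24.3 and the 12 h libraries 5.46, 6.96 and 1.2. At 24 h they read 6.48, 34.4 and 16.2, all above the 1 h libraries and all below the control. Its log2 difference from control at 1 h, -5.15, was the lowest of any member at any recovery time.

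BV898_16175 was the most abundant member in the control, at 1132, 1357 and 886 scaled TPM. The 0 h libraries were at 784, 896 and 1014, and those of 1 h at 398, 379 and 374. Those of 3 h were at 275, 310 and 242 and those of 6 h at 195, 207 and 225. The 24 h libraries, at 277, 220 and 203, lay below all of those of 1 h, so this transcript went down in a main step and then further. BV898_07213 was the third of the most abundant, with control libraries at 739, 800 and 489 and 24 h libraries at 58.5, 146 and 105.

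The shallowest members by the mean over the recovery times were BV898_09302 and BV898_13508, both at -1.46. BV898_13508 had control libraries at 66.4, 87.8 and 50.1 scaled TPM, with 0 h libraries at 42.6, 60.0 and 64.4. The 1 h libraries were at 26.6, 28.4 and 29.0, and the 24 h libraries at 17.5, 34.7 and 19.8. BV898_09302 was lower and more uneven, with control libraries at 13.5, 22.5 and 13.2 and 12 h libraries at 10.9, 5.24 and 3.10. For BV898_13508 even the highest recovery library, 24 h replicate 2, lay below all control and 0 h libraries. For BV898_09302 12 h replicate 1 lay above the lowest 0 h library, which stood at 9.12.

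The members also differed in how flat they stayed. The range of the 6 recovery means had a median of 1.14 on the log2 scale, from 0.17 to 2.81. It was under 0.5 in 3 members, BV898_16781, BV898_07384 and transcript 2 of BV898_02741, which were picked out after their values were seen. BV898_16781 had control libraries at 284, 326 and 256 scaled TPM and 0 h libraries at 216, 312 and 271. Its recovery means in time order were 75.9 ± 7.85, 77.4 ± 13.9, 78.8 ± 9.61, 79.0 ± 9.48, 77.4 ± 20.2 and 71.7 ± 21.0 (SD, n = 3 each). These means differed by less than the spread between libraries.

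Only 6 members (5.83%) lay at least 4-fold below control at all 6 recovery times, against 0.248% of kept transcripts. They are BV898_05991, BV898_09705, BV898_11592, BV898_12466, BV898_13682 and BV898_15603. Taken by time, in order from 1 h, the members at least 4-fold below control numbered 25, 53, 21, 26, 75 and 77. Among kept transcripts the shares were 1.49%, 2.18%, 1.05%, 1.54%, 6.26% and 4.79%, also highest at 12 h and 24 h. The rule used these differences, so the counts are a description. For 49 members the lowest of the 6 recovery means was that of 12 h (28.6% of kept transcripts), for 28 that of 24 h (18.7%), for 12 that of 3 h (10.1%) and for 10 that of 1 h (20.5%). It was that of 6 h in 4 members, BV898_00578, BV898_10279, BV898_11592 and BV898_17783, and that of 9 h in 0 of 103. Without the scaling, the low point came at 12 h in 71 members and 42.8% of kept transcripts, and at 24 h in 15 members and 16.9%, so the lean to 12 h grew among all transcripts as well. The highest recovery mean was that of 1 h in 38 members (20.6% of kept transcripts), that of 6 h in 26 (12.2%) and that of 24 h in 5 (23.1%).

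**Figure D4:**
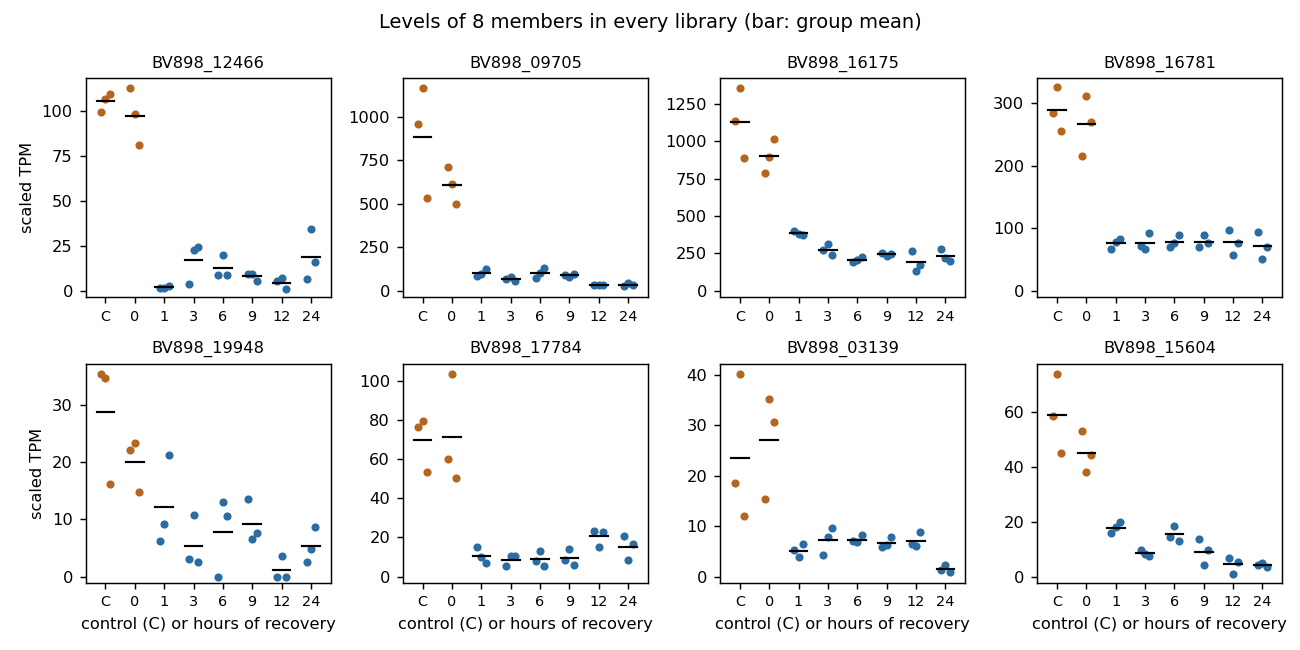
Scaled TPM of 8 members in every library (points) with group means (bars), each panel with its own linear axis; control (C) and 0 h are in orange and recovery times in blue. BV898_12466 is lowest at 1 h and BV898_03139 lowest at 24 h, BV898_16781 keeps recovery means between 71.7 and 79.0 scaled TPM, and BV898_17784 has its highest recovery level at 12 h.

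Since the rule set no order among the recovery times, these were compared with each other by limma on all 16490 transcripts that reached 1 TPM in 3 or more libraries. Calls below have a Benjamini-Hochberg adjusted p under 0.05 over all of them. The shares of all transcripts called are given for the main fit only. Where a library is left out or a setting is changed, a changed count is therefore not read as particular to the members. The limit of -1.2 caps the level at each time, so transcripts that climbed back above it were left out by the choice. The counts of rises and falls therefore hold only for transcripts that stayed low throughout. The rule limited rises but not falls, so a lean to falls was in part set by the choice. All transcripts tested had no such limit, and their split into rises and falls is given as a description only.

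From 1 h to 3 h, 9 members were called, 8 lower and 1 higher, and 7.67% of all transcripts tested were called (3.13% lower, 4.54% higher). The median change of the members was -0.26. The count rested on few libraries. Leaving out 1 h replicate 1 gave 5, leaving out 1 h replicate 2 or 1 h replicate 3 gave 2, leaving out 3 h replicate 1 gave 3 and leaving out 3 h replicate 2 gave 15. The call share of the members, 8.74%, was near that of all transcripts.

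The deepest called falls from 1 h to 3 h were in BV898_07213 and BV898_17390. BV898_07213 stood at 186, 205 and 293 scaled TPM at 1 h and at 47.5, 135 and 121 at 3 h, with no overlap. It fell by 1.27 ± 0.36 (SE) on the log2 scale (limma, Benjamini-Hochberg adjusted p = 0.0361). BV898_17390 had 1 h libraries at 27.3, 44.7 and 53.1 and 3 h libraries at 10.7, 22.6 and 24.1, and fell by 1.11 ± 0.31 (limma, adjusted p = 0.0326). Both calls were lost without 1 h replicate 2, 1 h replicate 3 or 3 h replicate 1, with limma adjusted p-values of 0.0808, 0.161 and 0.253 for BV898_07213 and 0.112, 0.161 and 0.225 for BV898_17390. For BV898_07213 the limma adjusted p was also 0.0549 without 1 h replicate 1. In each transcript 3 h replicate 1 was the lowest 3 h library.

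BV898_12466 was the 1 member that rose from 1 h to 3 h, by 2.26 ± 0.58 (SE) on the log2 scale (limma, adjusted p = 0.019). Its 3 h libraries lay above all of its 1 h libraries, although 3 h replicate 1 stood far below the other two. Leaving out 1 h replicate 1, 1 h replicate 2, 3 h replicate 2 or 3 h replicate 3 ended the call, with limma adjusted p-values of 0.0719, 0.0667, 0.0688 and 0.0876.

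From 3 h to 6 h, 1 member was called higher, and 1.72% of all transcripts were called (0.473% higher). The median change was 0.44, and 81 of 103 members lay above 0. The called member was BV898_18162, with 3 h libraries at 4.30, 3.02 and 4.66 scaled TPM and 6 h libraries at 11.1, 11.1 and 9.10. It rose by 1.21 ± 0.27 (SE) on the log2 scale (limma, adjusted p = 0.0216). Its level at 12 h was higher still, at 18.5, 12.5 and 20.7, while the control libraries stood at 45.8, 77.9 and 43.7. The call was lost in limma without 3 h replicate 1, 3 h replicate 2, 6 h replicate 1, 6 h replicate 2 or 6 h replicate 3, with adjusted p-values of 0.0651, 0.0686, 0.0624, 0.108 and 0.0504. Over the members the count was 0 without 3 h replicate 1, 6 h replicate 2 or 6 h replicate 3 and 2 without 3 h replicate 3.

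From 6 h to 9 h limma called 0 members and 0.0% of all transcripts. At an unadjusted p under 0.05 limma gave 3 members, all lower, and with quality weights per library it called 0. The median change was -0.12.

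**Figure D5:**
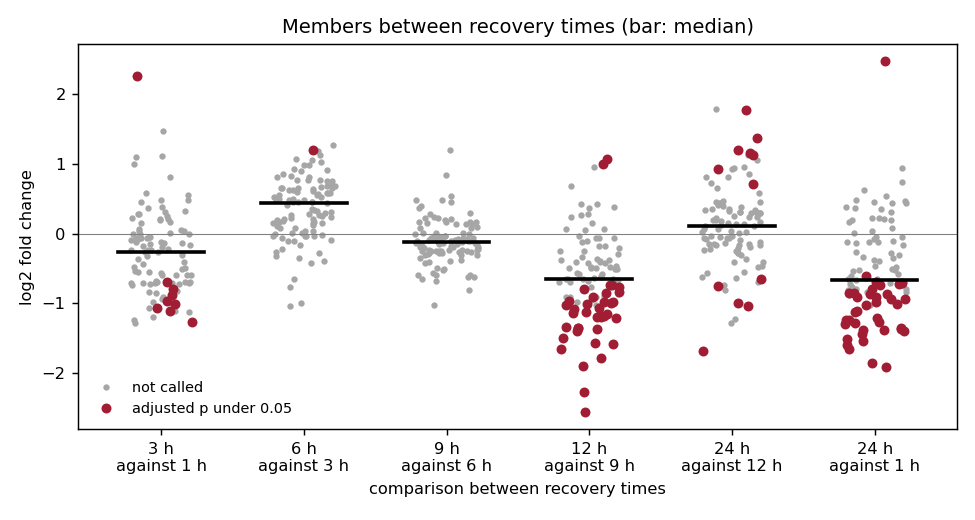
Log2 fold change of each of the 103 members between recovery times, from limma; red points have an adjusted p under 0.05 and bars are medians. From 9 h to 12 h the red points are 35 below and 2 above 0, from 12 h to 24 h 5 below and 7 above, and from 1 h to 24 h 37 below and 1 above.

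Between neighbouring times, calls were most frequent from 9 h to 12 h. Called were 37 members, 35 lower and 2 higher, when 26.6% of all transcripts were called (12.2% lower, 14.4% higher). Thus 34.0% of the members were called lower, but the rule limited rises and left falls free. The excess over 12.2% is therefore not read as a result about the members. The median change was -0.645, and 88 members lay below 0. Leaving out 9 h replicate 1 gave 15 called members, leaving out 9 h replicate 3 gave 17 and leaving out 12 h replicate 3 gave 12. Without the scaling, all transcripts shifted by a median of -0.28 in this comparison and 60 members were called, all lower, so the 2 rises were called only relative to the scaling.

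The deepest called falls from 9 h to 12 h were in BV898_19948 and BV898_16845. BV898_19948 stood at 13.6, 6.54 and 7.61 scaled TPM at 9 h, while its 12 h replicate 2 read 3.66 and the other two were listed at 0. It was called lower (limma, adjusted p = 0.0247), with a log2 change of -2.55 that depends on the pseudocount, from -1.21 with a pseudocount of 5 to -4.73 with 0.1. The call was lost in limma without 9 h replicate 1, 9 h replicate 3, 12 h replicate 1 or 12 h replicate 3, with adjusted p-values of 0.0867, 0.06, 0.0829 and 0.107. Its level was uneven elsewhere too, with 1 h libraries at 6.14, 9.23 and 21.2 against control libraries at 35.3, 34.6 and 16.1.

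BV898_16845 had 9 h libraries at 9.61, 10.5 and 13.4 scaled TPM. Its 12 h replicates 1 and 2 read 3.16 and 2.83 and replicate 3 was listed at 0, with no overlap. It was called lower (limma, adjusted p = 0.00659) and this call held without each of the 6 libraries in turn. Its log2 change was -2.26 ± 0.41 (SE), and -1.24 with a pseudocount of 5.

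The 2 members that rose from 9 h to 12 h stayed far from their controls. BV898_17784 had 9 h libraries at 8.34, 13.9 and 6.18 scaled TPM and 12 h libraries at 23.5, 15.1 and 22.9. It rose by 1.08 ± 0.38 (SE) on the log2 scale (limma, adjusted p = 0.0432). BV898_08400 had 9 h libraries at 7.43, 13.2 and 14.4 and 12 h libraries at 19.5, 19.9 and 33.1, and rose by 1.00 ± 0.26 (limma, adjusted p = 0.0111). The control libraries stood at 76.3, 79.8 and 53.4 for BV898_17784 and at 72.2, 93.5 and 70.8 for BV898_08400.

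The 12 h libraries of both transcripts lay above all their 9 h libraries. Without the scaling the limma adjusted p was 0.176 for BV898_17784 and 0.063 for BV898_08400. Leaving out 9 h replicate 1, 9 h replicate 3, 12 h replicate 1 or 12 h replicate 3 ended the call of BV898_17784, with limma adjusted p-values of 0.109, 0.175, 0.113 and 0.129. Leaving out 9 h replicate 1 or 12 h replicate 3 ended that of BV898_08400, with 0.063 and 0.0722.

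From 12 h to 24 h members moved both ways, and 12 were called, 7 higher and 5 lower, when 19.9% of all transcripts were called (10.6% higher, 9.35% lower). The median change was 0.11. Without 12 h replicate 3 or without 24 h replicate 2 the count was 4. Without the scaling, all transcripts shifted by a median of 0.18 and the members split into 10 higher and 3 lower.

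Among members with a group mean of 5 scaled TPM or more on the higher side, the largest called rises from 12 h to 24 h were in BV898_12466 and BV898_03170. BV898_12466 rose by 1.78 ± 0.58 (SE) on the log2 scale (limma, adjusted p = 0.0344), and this call was lost in limma without 12 h replicate 3, 24 h replicate 2 or 24 h replicate 3, with adjusted p-values of 0.203, 0.206 and 0.0751. BV898_03170 had 12 h libraries at 12.7, 11.7 and 8.96 scaled TPM and 24 h libraries at 19.2, 39.0 and 25. It rose by 1.2 ± 0.34 (limma, adjusted p = 0.0182), and leaving out 12 h replicate 3 or 24 h replicate 2 gave limma adjusted p-values of 0.0864 and 0.112. For BV898_12466 the 12 h and 24 h libraries overlapped, and for BV898_03170 they did not. Its 24 h level was still far below the control libraries, at 141, 165 and 94.5. BV898_11515, whose 12 h and 24 h means were under 5 scaled TPM, was also called higher, with a log2 change of 1.37 ± 0.43 (limma, adjusted p = 0.0307). Its 12 h libraries stood at 0.495, 0 (as listed) and 1.37 scaled TPM and its 24 h libraries at 1.36, 4.87 and 3.41, so they overlapped, and it was picked out after its values were seen. The call was lost without 12 h replicate 1 or 2 and without 24 h replicate 2 or 3 (limma, adjusted p = 0.0692, 0.11, 0.157 and 0.0792).

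BV898_03139 and BV898_02342 had the deepest called falls from 12 h to 24 h. BV898_03139 stayed between 3.89 and 9.62 scaled TPM from 1 h to 12 h, with 12 h libraries at 6.38, 6.07 and 8.86. At 24 h it stood at 1.38, 2.28 and 0.969, a fall by 1.69 ± 0.37 (SE) on the log2 scale (limma, adjusted p = 0.00376). BV898_02342 had 12 h libraries at 14.7, 13.5 and 16.1 and 24 h libraries at 7.86, 5.07 and 7.51, and fell by 1.03 ± 0.22 (limma, adjusted p = 0.00326). Both calls held without each of the 6 libraries in turn, and in both transcripts the 24 h libraries were the lowest of all 24.

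Over the whole of recovery, from 1 h to 24 h, 37 members fell further and 1 rose, when 30.5% of all transcripts were called (13.6% lower, 16.9% higher). The median change was -0.66, and 80 members lay below 0. The count of 38 became 28, 25 and 18 when replicates 1, 2 and 3 of 1 h were left out in turn, and 18, 53 and 22 for those of 24 h. Of the 35 members called lower from 9 h to 12 h and the 37 called lower from 1 h to 24 h, 16 were in both lists. The lists compare different libraries but share 1 estimate of the spread from all 24. Those 16 are 15.5% of the members, and 5.54% of all transcripts fitted were in both lists. Each list alone also held more of the members, 34.0% against 12.2% and 35.9% against 13.6% of all transcripts fitted. Among kept transcripts, filtered as the members were, the shares were 15.1% and 16.7%. The rule limited rises but not falls, so nothing is read from these differences. The shared part is therefore not read as a separate result. There were 41 members (39.8%) with no call in any of the 6 comparisons, against 47.6% of all transcripts fitted. Without the scaling all transcripts shifted by a median of -0.15 from 1 h to 24 h, and 45 members were called lower and 1 higher.

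BV898_01429 and BV898_15604 fell most from 1 h to 24 h. BV898_01429 had 1 h libraries at 36.2, 46.4 and 44.8 scaled TPM and 24 h libraries at 12.9, 12.4 and 7.06. It fell by 1.92 ± 0.22 (SE) on the log2 scale (limma, adjusted p = 6.2e-06). From 3 h to 12 h its means were 22.5 ± 0.683, 24.7 ± 3.14, 23.0 ± 4.53 and 17.2 ± 4.24 (SD, n = 3 each), between the 1 h and the 24 h level. BV898_15604 had 1 h libraries at 15.7, 18.1 and 19.8 and 24 h libraries at 4.10, 4.97 and 3.65, and fell by 1.85 ± 0.38 (limma, adjusted p = 0.00116).

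The 3 most abundant members fell as well between these times. BV898_09705 fell by 1.53 ± 0.26 (limma, adjusted p = 2.22e-04) and BV898_16175 fell by 0.73 ± 0.20 (limma, adjusted p = 0.0087). BV898_07213 fell by 1.21 ± 0.36 (limma, adjusted p = 0.0163), a call lost in limma without 1 h replicate 3 or 24 h replicate 1, with adjusted p-values of 0.0847 and 0.117. The calls of BV898_01429, BV898_15604, BV898_09705 and BV898_16175 held without each of the 6 libraries in turn. BV898_12466 was the 1 member that rose, by 2.47 ± 0.58 (limma, adjusted p = 0.00313), and this call also held without each of the 6 libraries. It had the lowest log2 difference from control of all members at 1 h. After 24 h its mean stood at 18.1% of its control level, as for the median member, with 24 h replicate 2 well above the others. On the log2 scale its 24 h difference from control was -2.68, below the member median of -2.28 and the lower quartile of -2.67.

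Some of these calls also depended on the fit. On the 6 libraries of a comparison alone, the limma adjusted p was 0.0957 for BV898_07213, 0.106 for BV898_17390 and 0.0724 for BV898_12466 from 1 h to 3 h, and 0.11 for BV898_18162 from 3 h to 6 h. It was 0.0578 for BV898_08400 from 9 h to 12 h. For the comparison of 24 h with 12 h it was 0.149 for BV898_12466, 0.0772 for BV898_03170 and 0.0871 for BV898_02342. With no filter on low values the limma adjusted p was 0.0526 for BV898_07213 from 1 h to 3 h and 0.059 for BV898_17784. With a pseudocount of 5 it was 0.0667 for BV898_18162, and on unscaled TPM 0.0578 for BV898_07213.

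Other transcripts met the recovery limits from another level at 0 h. Of 267 kept transcripts at least 1.2 below control at all 6 recovery times, 103 are the members. Another 103 lay 0.5 to 1.2 below control at 0 h, 55 lay at least 1.2 below and 6 lay more than 0.5 above. From 9 h to 12 h, 57 of the 103 that lay 0.5 to 1.2 below at 0 h were called lower, against 35 of the members, and 6 of the 55 that were lowest at 0 h. From 1 h to 24 h these counts were 39, 37 and 9. Of all kept transcripts 15.1% were called lower from 9 h to 12 h and 16.7% from 1 h to 24 h. The differences between the sets were not tested. Among the 91 transcripts raised by the mirrored rule, 22 (24.2%) were called higher from 9 h to 12 h and 15 (16.5%) from 1 h to 24 h, against 17.7% and 20.4% of kept transcripts. Called lower were 3 (3.3%) and 1 (1.1%) of the 91. The mirrored rule limited falls as the members' rule limited rises, so such splits were in part set by the choice.

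The limit of -1.2 cut through a continuous range. Just inside were transcript 2 of BV898_15709 and BV898_10535, both at -1.21 at 9 h, their highest recovery time. Just outside were BV898_03571, at -1.196 at 1 h, and BV898_01267, at -1.19 at 3 h. BV898_10535 had 9 h libraries at 90.3, 85.1 and 88.5 scaled TPM and controls at 214, 243 and 166. Among transcripts near control at 0 h, 41 missed the limit by at most 0.1, and 29 members were inside it by at most 0.1.

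Transcript 2 of BV898_15709 was a member of another kind. It stood at 6.74, 9.09 and 5.04 scaled TPM in the control, had a listed level of 0 in each 1 h library and stood at 3.74, 1.80 and 1.89 at 9 h. The other transcript of its locus was at a mean of 3.17 in the control and 5.11 at 1 h. Of the 103 members, 12 were listed at 0 in at least 1 library. Reads of 2 transcripts of a locus are split by estimation, so such values are uncertain.

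The members came from 103 different loci, and 89 of these have a single transcript in the table. The other 14 members came from loci with at least 2 transcripts, 9 of them as transcript 2, and share their locus with 15 further transcripts, all of them kept. Of those 15, 2 were also at least 1.2 below control at all 6 recovery times, namely transcript 1 of BV898_02741 and transcript 2 of BV898_03086, picked out after their values were seen. With TPM summed over each locus, 93 of the 103 loci still met the rule, but only 4 of these 14. At BV898_03086 the summed level had a log2 difference from control of -1.01 at 0 h, and at BV898_14452 the summed level stood at -0.68 at 6 h.

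Of the 103 members, 16 carry consecutive locus numbers, in 7 runs. They are BV898_00866 to BV898_00867, BV898_03139 to BV898_03140, BV898_05547 to BV898_05548, BV898_05820 to BV898_05822, BV898_13714 to BV898_13716, BV898_15603 to BV898_15604 and BV898_17783 to BV898_17784. No genome was used here, so their positions and the likeness of their sequences were not examined, and near-identical copies could share reads. The number of runs was not tested against chance.

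Members of a run moved alike in some cases and apart in others. BV898_15603 had controls at 58.7, 80.4 and 37.5 scaled TPM and 24 h libraries at 2.53, 4.35 and 2.99, close to the values of BV898_15604. BV898_03140 had 1 h libraries at 5.15, 6.30 and 7.53 and 24 h libraries at 0.929, 2.88 and 1.57. Its 12 h libraries, at 4.69, 2.79 and 3.75, lay below all of those of BV898_03139. BV898_17783 had 9 h libraries at 3.19, 5.78 and 4.44 and 12 h libraries at 8.44, 6.21 and 8.49, all above them as for BV898_17784, and was not called.

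In the run BV898_13714 to BV898_13716 the 3 controls were alike, with means of 85.5, 93.0 and 106 scaled TPM. Their 1 h means were 33.8, 35.9 and 41.4, and their 12 h means 18.3, 7.17 and 11. Loci numbered next to members gave 141 further kept transcripts, of which 4 were at least 1.2 below control at all 6 recovery times. Their mean recovery difference had a median of -0.10, against 0.05 for all kept transcripts, and 14.2% of them had a mean recovery difference of -1.2 or lower, against 8.23% of kept transcripts that are no members.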

How the data were processed

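Whole-body RNA of 24 pools was sequenced. The labels' protocols give column extraction of total RNA and Illumina library preparation. The values deposited by the authors are TPM per transcript in 1 table. The submitters' processing notes name RSEM 1.2.26, Bowtie2 2.2.9, DESeq2 1.22.2 and FastQC 0.11.3, with no role for each. A genome build is not given in the sources used here, nor is an annotation. Each column sums to 1000000 within rounding, so depth is unknown. A value of exactly 0 may reflect a failed estimate.

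As scale factor each library took the median, over the 12190 transcripts above 0 in all 24, of its TPM over their geometric mean. The rule was applied to means of log2(scaled TPM + 1). Members and lists were chosen with earlier results of these data known. The 16490 transcripts that reached 1 TPM in 3 or more libraries were fitted with limma 3.58.1 in R 4.3.3, all 24 libraries in 1 model with a mean per group, two-sided, with trend and robust settings. Benjamini-Hochberg adjustment ran over all transcripts within each of 6 comparisons of recovery times, with a threshold of 0.05. Comparisons with control, and 1 h with 0 h, were used by the rule and not tested. With 3 libraries against 3, an exact permutation test cannot give a p below 0.1. Plots were made in Python 3.11.15 with matplotlib 3.10.9.

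Named members were the deepest and shallowest, the 3 most abundant, the 2 largest called rises and falls per comparison with a group mean of 5 scaled TPM or more on the higher side, those just inside the limit, and those with the most and least even controls, with exceptions stated beside them. Lists of genes by function and of tissue markers need product names that are not in the table, so 0 lists matched and the whole-body label could not be checked. The labels give no batch or date. Alternatives tried were quantile normalization, unscaled TPM, other filters, limits and pseudocounts, sums per locus, quality weights, the replicate number as a block, the 6 libraries alone, and leaving out each library.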

Additional observations from a re-analysis of the deposited data

How the results depend on the processing

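The members called were recounted under each alternative. The share of all transcripts called under each is not given here, so a general change in calls cannot be told from one in the members. Without 1 library at a time the counts ran from 2 to 15 from 1 h to 3 h (9 with all libraries), 0 to 2 from 3 h to 6 h (1), 12 to 33 from 9 h to 12 h (37), 4 to 17 from 12 h to 24 h (12) and 18 to 53 from 1 h to 24 h (38). From 6 h to 9 h limma called 0 under every setting run. Quality weights gave 25, 12 and 64 for 1 h to 3 h, 3 h to 6 h and 1 h to 24 h. The 6 libraries alone gave 3, 0 and, for 12 h to 24 h, 1. A filter of at least 5 TPM gave 15 and 3 for the first and second comparisons, quantile normalization gave 2 from 3 h to 6 h, and unscaled TPM gave 60 from 9 h to 12 h. The rule gave 58 members with a pseudocount of 5, 199 with a limit of 1.0 and 43 with a limit of 1.5. The leave-out counts of members ran from 78 to 135.

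The median difference of the 103 from control, leaving out 1 library at a time, had a 0 h range of -0.45 to -0.080, a 1 h range of -1.87 to -1.52, a 9 h range of -1.99 to -1.62 and a 12 h range of -2.59 to -2.17. The ranges for 3 h, 6 h and 24 h are not given here. At those times the library medians spread more, with SDs of 0.29, 0.22 and 0.36 (n = 3 each). The SDs were 0.15 at 1 h, 0.14 at 9 h and 0.03 at 12 h. With a pseudocount of 5 the medians were -1.41 (1 h), -1.51 (9 h), -1.85 (12 h) and -1.89 (24 h). A pseudocount of 0.1 gave -2.63 for 12 h, and unscaled TPM gave -1.95 for 9 h and -2.79 for 12 h. These medians stayed below 0. Of the named comparisons, 8 values turned in sign, none of them called. From 12 h to 24 h BV898_09705 was at -0.027 with quantile normalization, -0.094 with quality weights and -0.19 to 0.18 without 1 library at a time. In that comparison, also without 1 library at a time, BV898_09302 ran from -0.64 to 0.13, BV898_15604 from -0.43 to 0.50 and BV898_16255 from -0.84 to 0.31, with 0.13 under quality weights. From 1 h to 24 h transcript 2 of BV898_15709 ran from 0.0 to 0.71. The cause was not tested.

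Same-numbered libraries were not paired by the labels. Their deviations from group means correlated from -0.18 to 0.29, and 6 of 18 pairs exceeded 0.1. With a replicate block the counts were 11, 1, 0, 37, 13 and 40 in time order, the comparison of 24 h with 1 h last. Unknown depth, 3 libraries a group and a single set of controls limit all values.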
